A study of Homo sapiens with 24 samples.

Results

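The 10 receptor tyrosine kinases described here are genes studied in glioblastoma: EGFR, ERBB2, ERBB3, PDGFRA, PDGFRB, MET, FGFR1, AXL, IGF1R, and EPHA2. They were taken by gene symbol, with no threshold on a value, and they are 10 of the 43037 genes measured. CAGE-Seq reads the capped 5′ end of transcripts, so 1 tag stands for 1 transcript start and no scaling by transcript length applies. The cells were 4 established glioblastoma lines, U87MG, T98G, U251MG, and DBTRG-05MG. Every group carried a stably integrated lentivirus at a multiplicity of infection of 1.5 and was selected with 1 µg/mL puromycin: the “WWOX” variant received the WWOX vector (pLenti-GIII-CMV-GFP-2A-Puro, with a CMV promoter, GFP, and a resistance gene), and the “Vec” variant received Puro-Blank virus. There were 3 libraries per variant and line, 8 groups, and 24 libraries. The selection is described as clonal, and how many clones a variant holds is not given in the sources used here. T98G was grown in MEM, DBTRG-05MG in RPMI 1640, and U251MG and U87MG in EMEM, so that, apart from the latter pair, medium and line cannot be told apart.

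Receptor tyrosine kinases span the plasma membrane, and a ligand joins receptor molecules into pairs whose kinase domains phosphorylate each other. The phosphorylated tails recruit adaptor proteins that switch on the RAS and MAPK cascade and the PI3K and AKT cascade, and both drive growth and survival. In glioblastoma, EGFR is the receptor gene most often amplified or mutated, with PDGFRA and MET as further recurrent targets, and AXL, IGF1R, FGFR1, and EPHA2 are known for invasion and for resistance to inhibitors of other receptors. The WWOX protein, a WW-domain oxidoreductase, binds proteins with proline-rich motifs, and the intracellular part of ERBB4 is among its known partners. The comparison of “WWOX” with “Vec” asks which genes differ between the variants of a line. The variants also differed in the vector and in the cells selected, so that WWOX, vector, and clone cannot be told apart. The comparison of the “Vec” groups asks how the lines differ with the control virus.

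RefSeq promoter windows of 300 bases (250 before and 50 after the annotated start, GRCh38.p14) matched 8 of the 10 receptors, and ERBB3 and FGFR1 are named only. Shown are the 5 receptors whose “Vec” groups differed most between lines in the limma fit: ERBB2 (chr17:39687844-39688143, plus strand), PDGFRA (chr4:54229043-54229342, plus strand), PDGFRB (chr5:150155796-150156095, minus strand), MET (chr7:116671946-116672245, plus strand), and EPHA2 (chr1:16156020-16156319, minus strand). They read 5′ to 3′ on the strand of the gene, and capitals mark 3 motifs on either strand: TATAAA (letters of the TATA box), CCAAT (bound by NF-Y), and GGGCGG (the GC box).
ERBB2: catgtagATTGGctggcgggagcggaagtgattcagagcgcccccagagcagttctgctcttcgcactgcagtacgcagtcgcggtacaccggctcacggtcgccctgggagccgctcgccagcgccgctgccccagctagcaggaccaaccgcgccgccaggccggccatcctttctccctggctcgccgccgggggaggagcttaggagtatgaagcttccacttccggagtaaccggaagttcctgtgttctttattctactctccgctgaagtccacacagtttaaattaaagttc
PDGFRA: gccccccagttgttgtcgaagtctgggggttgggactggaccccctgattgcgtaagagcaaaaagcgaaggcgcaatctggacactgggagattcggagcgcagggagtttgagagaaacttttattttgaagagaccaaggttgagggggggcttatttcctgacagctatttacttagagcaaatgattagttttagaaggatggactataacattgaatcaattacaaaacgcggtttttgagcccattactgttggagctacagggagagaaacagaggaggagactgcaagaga
PDGFRB: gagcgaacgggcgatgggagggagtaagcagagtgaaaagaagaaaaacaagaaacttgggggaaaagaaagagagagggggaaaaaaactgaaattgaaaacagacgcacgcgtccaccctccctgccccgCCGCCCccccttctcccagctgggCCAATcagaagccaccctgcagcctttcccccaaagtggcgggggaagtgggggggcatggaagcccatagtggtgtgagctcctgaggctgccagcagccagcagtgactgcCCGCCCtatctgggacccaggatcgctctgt
MET: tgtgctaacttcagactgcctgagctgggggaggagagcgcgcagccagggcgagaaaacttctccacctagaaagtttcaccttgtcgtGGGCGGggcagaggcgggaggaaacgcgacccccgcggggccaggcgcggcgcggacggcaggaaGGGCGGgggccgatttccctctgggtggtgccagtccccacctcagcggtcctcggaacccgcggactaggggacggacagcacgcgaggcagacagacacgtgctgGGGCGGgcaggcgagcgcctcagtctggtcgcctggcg
EPHA2: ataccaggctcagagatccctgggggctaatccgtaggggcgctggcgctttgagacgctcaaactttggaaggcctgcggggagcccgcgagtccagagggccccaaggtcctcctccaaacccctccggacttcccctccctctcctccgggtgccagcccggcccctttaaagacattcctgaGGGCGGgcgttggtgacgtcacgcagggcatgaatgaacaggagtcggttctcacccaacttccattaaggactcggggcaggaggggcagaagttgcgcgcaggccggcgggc

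None of the 8 windows held TATAAA, which 11.95% of all 27305 RefSeq windows of this length held. CCAAT was found in ERBB2 and PDGFRB and in 35.7% of all windows. GGGCGG, which the SP1 family binds, was found 3 times each in EGFR and MET, 2 times each in PDGFRB, AXL, and IGF1R, 1 time in EPHA2, and not in ERBB2 or PDGFRA, and 44.59% of all windows held it. Counts of CpG, the dinucleotide on which promoters are methylated, ran from 55 in IGF1R, 33 in EGFR, and 30 in MET through 24 in ERBB2, 20 in EPHA2, and 11 in PDGFRB to 8 in PDGFRA and 7 in AXL, around a median of 14 over all windows. The PDGFRA window thus held no motif searched and few CpG, and the MET window held 3 GC boxes. These are descriptions of letters and no statement about binding.

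Facts of the whole series bear on the values below. The libraries held 10756072 to 16953689 tags on genes, so that 0 tags in a library allows up to 3 tags, or 0.177 to 0.279 CPM (counts per 1000000 tags), for counting error only. Every library correlated more highly with its own line than with any other line, but the 3 U251MG “WWOX” libraries stood apart: their mean correlation with each other was 0.904 to 0.930, against 0.949 to 0.983 in the other groups. Of 10 glioma cell markers, 4 to 9 reached 5 CPM in at least 1 library of each group, CD44 was at 678 to 3520 CPM in every library, and OLIG2 did not exceed 3.57 CPM. Leukocyte markers (8 genes) summed to 0 to 1.19 CPM and endothelial markers (7 genes) to 0.396 to 15.8 CPM, with CDH5 up to 13.2 CPM in U251MG “WWOX”. Of the endothelial markers, ESAM and KDR also reached 7.86 and 6.22 CPM. Epithelial markers (8 genes) summed to 0.549 to 30.2 CPM, highest in DBTRG-05MG, with GRHL2 at or near 0. CLDN7 reached 25.4 CPM in a DBTRG-05MG “Vec” library. In U87MG it was at 3.48, 0.927, and 0.772 CPM in “Vec” and at 3.79, 4.82, and 5.93 in “WWOX”. The difference there passed (1.41, adjusted p = 0.0345, limma), although the libraries overlapped after scaling. Neuron markers (8 genes) summed to 14.0 to 327 CPM. MAP2 was at 4.28 to 216 CPM, and SYT1, SNAP25, and NEFL reached 108, 32.5, and 21.3 CPM. RBFOX3 and SLC17A7 were at or near 0, and GAD1 and STMN2 did not exceed 2.67 and 4.58 CPM. The introduced gene, WWOX, was at 37.9 ± 3.48 CPM in U87MG “Vec” and 62.7 ± 2.79 in “WWOX” (SD, n = 3 each), at 43.4 ± 12.2 and 55.6 ± 9.17 in T98G, at 33.5 ± 2.96 and 37.4 ± 19.7 in U251MG, and at 21.3 ± 0.927 and 29.4 ± 2.25 in DBTRG-05MG. In U251MG, 1 “WWOX” library held 17.4 CPM of it, below every “Vec” library. None of the 4 differences passed the threshold with limma (adjusted p from 0.136 in U87MG to 1 in U251MG), and DESeq2 passed the one in U87MG (0.67, adjusted p = 0.0470). Transcripts that start at the CMV promoter of the vector may not be counted at the WWOX gene. These values therefore need not hold the introduced transcripts. The study reports that Western blot of extracted protein bore out the transduction. The labels of the variants are used here as given.

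ERBB3, the kinase-impaired partner of ERBB2, was close to absent. It ran from 0 to 0.966 CPM over all 24 libraries, the latter being 15 tags in a DBTRG-05MG “Vec” library, and it was at 0 in 3 libraries. It did not reach the 5 CPM in at least 1 library that a gene needed to be tested, so the tests cover 9 of the 10 receptors.

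The 9 other receptors differed mostly between lines. The division of each receptor's sum of squares over the 24 libraries gave 81.3% to 94.3% between lines for 8 of them, where the median gene tested had 63.0%. AXL was the exception with 30.6% between lines and 61.1% within groups of 3 libraries. The part between “Vec” and “WWOX” within lines was at most 8.38% (AXL), 7.49% (EGFR), and 5.96% (FGFR1), beside a median of 7.27% over all genes.

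**Figure D1:**
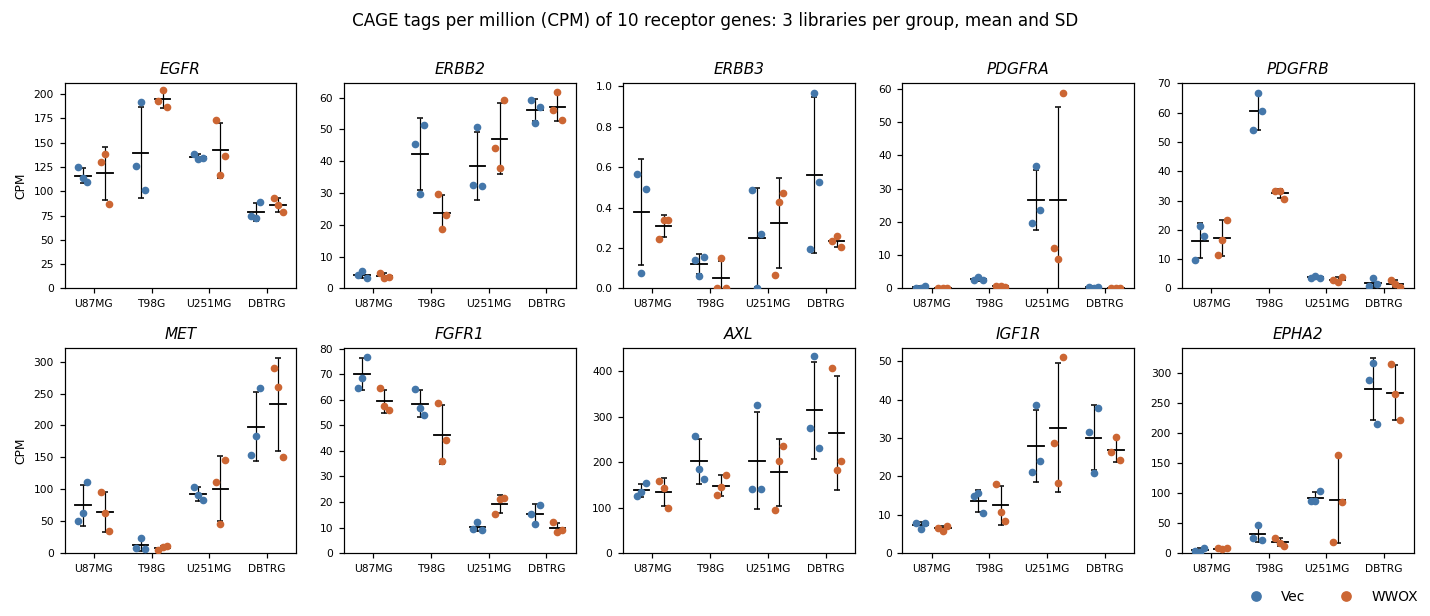
CPM of the 10 receptors (y axes, each from 0) in the 3 libraries (points), with the mean (horizontal line) and SD (whiskers), of the Vec (blue) and WWOX (orange) variants of the 4 lines (x axes). ERBB2 is low in U87MG alone, PDGFRA is high in U251MG alone, and the 3 U251MG WWOX libraries spread from 18.7 to 164 CPM in EPHA2.

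**Figure D2:**
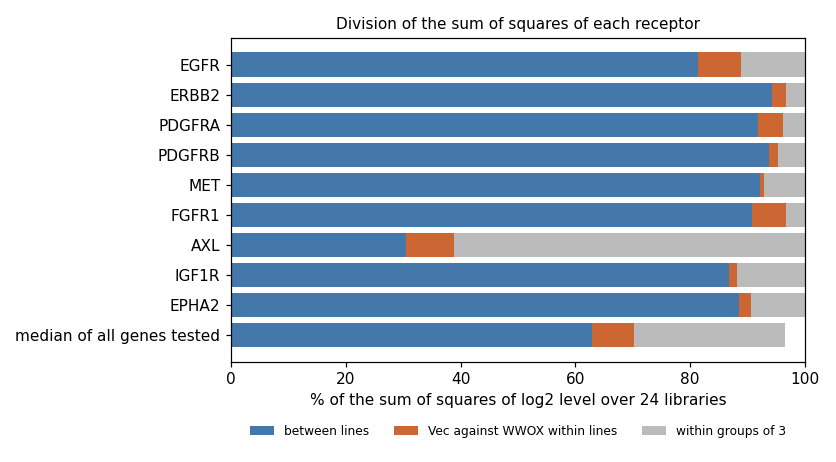
Share of the sum of squares of log2 level (x axis, %) that lies between the lines (blue), between Vec and WWOX within lines (orange), and within groups of 3 libraries (gray), for 9 receptors and as the median of each part over all 12327 genes tested, so that its parts need not add up to the whole. For 8 receptors the blue part exceeds 81%, and for AXL it is 30.6%.

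Among the “Vec” groups, 6 of the 9 receptors differed between U87MG and T98G (adjusted p under 0.05, limma with Benjamini-Hochberg adjustment over all 12327 genes), where 39.8% of all genes did. For U87MG it was 6 of 9 against U251MG (38.6% of genes) and 7 of 9 against DBTRG-05MG (44.1%). For T98G it was 6 of 9 against U251MG (32.4%) and 7 of 9 against DBTRG-05MG (41.2%), and for U251MG against DBTRG-05MG it was 4 of 9 (31.6%). Of these last 4, PDGFRB and EPHA2 were lost without the filter on low values. EPHA2 and PDGFRB passed in all 6 pairs, as 1.66% of genes did, PDGFRA and IGF1R passed in 5, MET and FGFR1 in 4, EGFR and ERBB2 in 3, and AXL in 0, as did 24.9% of genes. The 3 libraries of U87MG did not overlap with those of T98G for 8 of 9 receptors (49.1% of genes), with those of U251MG for 6 (54.2%), or with those of DBTRG-05MG for 8 (59.6%). For T98G the counts were 6 against U251MG (43.3%) and 7 against DBTRG-05MG (51.7%), and U251MG against DBTRG-05MG gave 7 (50.2%). The pairs share groups and are not independent of each other. The p values measure the spread between the biological triplicates of 1 transduced variant per line, and in bulk RNA fewer transcripts per cell and fewer cells with the transcript cannot be told apart.

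**Figure D3:**
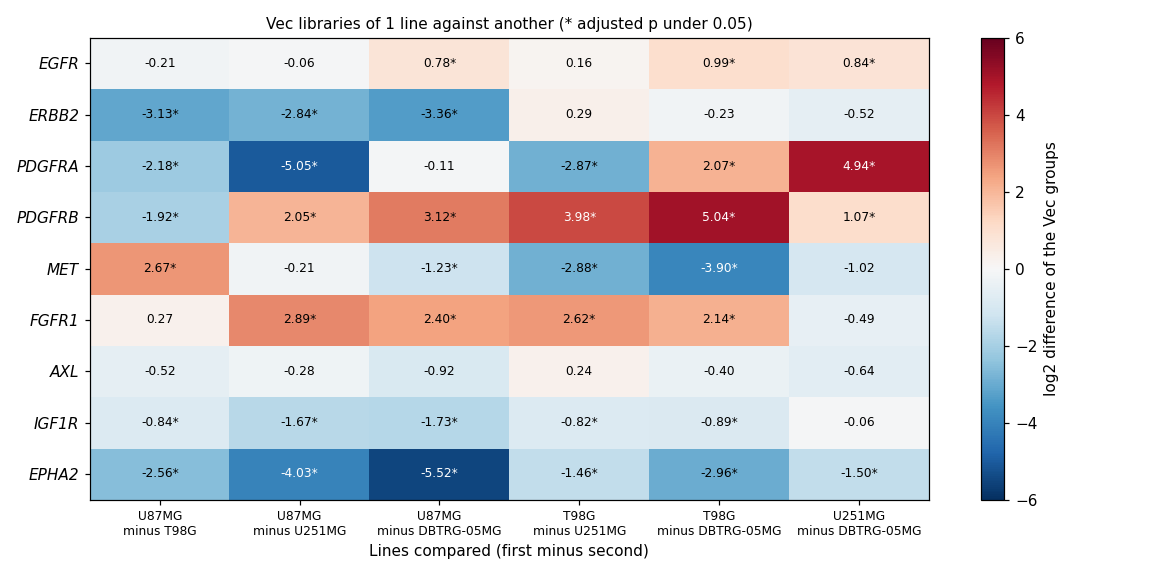
Differences of the Vec groups on the log2(CPM + 0.5) scale for 9 receptors (y axis) in the 6 pairs of lines (x axis, first line minus second), colored from blue (lower in the first) to red (higher in the first), with an asterisk for an adjusted p under 0.05. Among the differences are −5.52 for EPHA2 between U87MG and DBTRG-05MG and −5.05 for PDGFRA between U87MG and U251MG, and the AXL row has no asterisk.

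EGFR, the receptor of EGF, TGFA, and amphiregulin (chr7:55019017-55211628, plus strand, GENCODE 44 on hg38), was high in every line and lowest in DBTRG-05MG. Its “Vec” libraries were at 125, 114, and 109.5 CPM in U87MG, at 126, 192, and 101 in T98G, and at 138, 133, and 134 in U251MG. In DBTRG-05MG they were at 74.4, 72.1, and 89.1, below every “Vec” library of the other lines. DBTRG-05MG was lower than U87MG by 0.78 ± 0.20 (SE, n = 3 per group) on the log2 scale (adjusted p = 0.00292, limma), than T98G by 0.99 ± 0.20 (0.000364), and than U251MG by 0.84 ± 0.20 (0.00249). The order DBTRG-05MG, U87MG, U251MG, T98G rests on the first step only, since the other 3 lines did not differ beyond their spread. All 3 differences passed under every alternative and without any 1 library. The median gene of chromosome 7, less that of all genes, lay at −0.22 for U87MG minus DBTRG-05MG, at −0.28 for T98G minus DBTRG-05MG, and at 0.0033 for U251MG minus DBTRG-05MG. Its part in the EGFR values was not tested.

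In the “WWOX” variant of T98G, EGFR was at 193, 204.5, and 186.5 CPM. These values lay well above 2 of the “Vec” libraries and close to the other. After scaling, the groups did not overlap, and the difference was 0.53 ± 0.20 (95% interval 0.11 to 0.94), which did not pass (adjusted p = 0.267, limma). In U87MG the “WWOX” libraries were at 129.9, 138, and 87.1 CPM, in U251MG at 173, 117, and 136, and in DBTRG-05MG at 93.4, 85.9, and 78.8. In these 3 lines they overlapped with “Vec”, with log2 fold changes of −0.06 to 0.07 and 95% intervals within −0.47 and 0.48.

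ERBB2, the ErbB receptor without a ligand of its own and the preferred partner of the others (chr17:39687914-39730426, plus strand), set U87MG apart. There its “Vec” libraries were at 4.12, 5.56, and 3.37 CPM, against 45.4, 29.6, and 51.5 in T98G, 32.5, 50.7, and 32.2 in U251MG, and 59.2, 52.2, and 56.9 in DBTRG-05MG. No library of U87MG, of either variant, came near any library of another line. U87MG was lower than T98G by 3.13 ± 0.27 on the log2 scale (adjusted p = 1.97e-09, limma), than U251MG by 2.84 (9.09e-09), and than DBTRG-05MG by 3.36 (5.12e-10). T98G, U251MG, and DBTRG-05MG did not differ beyond their spread, with adjusted p from 0.148 to 0.516. The start of ERBB2 lies within PGAP3 on the opposite strand, and how the authors' counting treated strand is not given in the sources used here, so that tags of the pair may not be separable.

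In T98G “WWOX”, ERBB2 was at 29.8, 18.8, and 23.0 CPM, mostly below “Vec” but with 1 library above the lowest “Vec” library. The log2 fold change was −0.80 ± 0.27 (95% interval −1.35 to −0.24, adjusted p = 0.172, limma). Without T98G “Vec” library 2, which held the least ERBB2 of that group, it was −1.11 and passed (adjusted p = 0.0224), and the difference of T98G from the other lines passed as well. In this comparison the median gene of chromosome 17 lay at −0.31 once the median of all genes was subtracted, and its part in the value was not tested. U87MG “WWOX” was at 4.83, 3.26, and 3.56 CPM, U251MG at 44.04, 37.8, and 59.4, and DBTRG-05MG at 56.2, 61.6, and 53.0, all overlapping with “Vec”, and the fold changes were −0.20, 0.28, and −0.05.

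PDGFRA, the receptor of PDGF-A and other PDGF chains and a marker of oligodendrocyte precursors (chr4:54229280-54298245, plus strand), was a U251MG gene. Its “Vec” libraries were at 19.5, 36.9, and 23.4 CPM there, at 2.39, 3.32, and 2.57 in T98G, at 0.071, 0.155, and 0.631 in U87MG, and at 0.458, 0.129, and 0.527 in DBTRG-05MG. The lowest U251MG “Vec” library stood above the highest T98G library, and the latter above all of U87MG and DBTRG-05MG, a pair that did not differ (difference −0.11 ± 0.40, adjusted p = 0.842). U251MG exceeded DBTRG-05MG by 4.94 ± 0.40 (adjusted p = 1.11e-09, limma), U87MG by 5.05 (4.51e-10), and T98G by 2.87 (4.68e-06), and T98G exceeded U87MG by 2.18 (0.000119) and DBTRG-05MG by 2.07 (0.000223). These differences against lines with 1 to 9 tags per library depend on the 0.5 added before the logarithm: U87MG minus U251MG ran from −6.56 to −4.34 over the 10 alternatives with all libraries, all past the threshold. Another gene, ENSG00000282278, lies over the start of PDGFRA on the same strand.

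In T98G, PDGFRA was lower in the “WWOX” variant, at 0.744, 0.742, and 0.462 CPM (8, 10, and 7 tags) against 34, 53, and 33 tags in “Vec”. The groups did not overlap, and the log2 fold change was −1.53 ± 0.40 (95% interval −2.36 to −0.71), short of the threshold (adjusted p = 0.0657, limma). DESeq2 on the recovered tags gave −2.06 with an adjusted p of 0.0462, edgeR and limma-voom did not pass it, and limma passed it when any 1 of the 3 U251MG “WWOX” libraries was left out, with the value still at −1.53 (adjusted p = 0.0327, 0.0431, and 0.00289 for libraries 1, 2, and 3). These 3 libraries were at 12.2, 8.87, and 58.8 CPM, so that their mean of 26.6 ± 27.9 (SD, n = 3) matches the “Vec” mean while 2 lie below and 1 lies above every “Vec” library. DBTRG-05MG “WWOX” held 1, 0, and 1 tags and U87MG “WWOX” 2, 1, and 1, at or under the limit of 3 tags. With each DBTRG-05MG “WWOX” library set at that limit, PDGFRA was 1.97-fold below the “Vec” mean. The “Vec” libraries held 7, 2, and 8 tags, with library 2 itself under the limit, so this is no firm minimum. The limma estimate in DBTRG-05MG was −0.62 (95% interval −1.44 to 0.21, adjusted p = 0.842). In U87MG the “Vec” libraries held 1, 2, and 9 tags and overlapped with “WWOX”, and no fold is given. Averaged over the lines the fold change was −0.74 ± 0.20 (adjusted p = 0.0554, limma). It passed with a pseudocount of 0.1 (−1.2, adjusted p = 0.0165), with edgeR (−1.68, 0.0478), and with DESeq2 (−1.76, 0.00790). It passed also without U87MG “Vec” library 1 (−0.80, 0.0389), U251MG “WWOX” library 2 (−0.67, 0.0418) or 3 (−0.92, 0.000493), or DBTRG-05MG “Vec” library 2 (−0.79, 0.0454).

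PDGFRB, the receptor of PDGF-B and a marker of pericytes (chr5:150113839-150155872, minus strand), followed another order, with T98G at the top. Its “Vec” libraries were at 54.1, 66.7, and 60.6 CPM in T98G, at 9.66, 21.4, and 17.9 in U87MG, at 3.49, 4.38, and 3.62 in U251MG, and at 0.655, 3.41, and 1.51 in DBTRG-05MG. None of these groups overlapped. T98G exceeded U87MG by 1.92 ± 0.39 (adjusted p = 0.000388, limma), U251MG by 3.98 (2.89e-08), and DBTRG-05MG by 5.04 (4.44e-10). U87MG exceeded U251MG by 2.05 (0.0002) and DBTRG-05MG by 3.12 (7.55e-07). The last step, U251MG over DBTRG-05MG, was 1.07 ± 0.39 (adjusted p = 0.0405), and it did not pass in 7 of the 10 alternatives that kept all libraries or when any 1 of the 3 U251MG “Vec” libraries or DBTRG-05MG “Vec” library 1 or 3 was left out (0.66 to 1.10, adjusted p = 0.0766 to 0.249). The members of the PDGF pair therefore had opposite tops: U251MG led in PDGFRA and T98G led in PDGFRB.

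The WWOX variant of T98G had PDGFRB at 33.4, 33.4, and 30.5 CPM, below every “Vec” library. The fold change was −0.89 ± 0.39 (95% interval −1.70 to −0.08) and did not pass (adjusted p = 0.376, limma). U251MG “WWOX” was at 2.74, 2.22, and 3.99 CPM, DBTRG-05MG “WWOX” at 2.77, 1.49, and 0.617, and U87MG “WWOX” at 11.3, 16.7, and 23.5. Of these, U251MG did not overlap after scaling (−0.35), and the other lines overlapped (−0.17 and 0.02).

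MET, the receptor of hepatocyte growth factor (chr7:116672196-116798377, plus strand), was low in T98G and highest in DBTRG-05MG. The T98G “Vec” libraries were at 8.37, 23.9, and 6.23 CPM, against 50.7, 63.2, and 111 in U87MG, 104, 91.3, and 82.5 in U251MG, and 154, 183, and 258 in DBTRG-05MG. T98G lay below U87MG by 2.67 ± 0.39 (adjusted p = 7.88e-06, limma), below U251MG by 2.88 (3.87e-06), and below DBTRG-05MG by 3.90 (3.18e-08). U87MG and U251MG did not pass (−0.21, adjusted p = 0.719). DBTRG-05MG exceeded U87MG by 1.23 (0.0143), which did not pass without U87MG “Vec” library 1 (U87MG minus DBTRG-05MG −0.98, adjusted p = 0.0791) or DBTRG-05MG “Vec” library 3 (−1.08, 0.0621). Its 1.02 over U251MG missed the threshold (adjusted p = 0.0520) and passed in 5 alternatives and 8 of the 24 fits that left out a library.

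MET and PDGFRB had a correlation of scaled log2 values of −0.85 over 24 libraries that share 4 lines, with T98G lowest in MET and highest in PDGFRB and DBTRG-05MG the reverse. In the “WWOX” variants, MET was at 95.7, 63.2, and 34.5 CPM in U87MG, at 5.67, 9.50, and 10.8 in T98G, at 111, 45.8, and 147 in U251MG, and at 289.7, 259.5, and 151 in DBTRG-05MG. All 4 overlapped with “Vec”. The fold changes lay between −0.36 and 0.15, with standard errors of 0.39, so that a change of up to 1.17 in size remained within the 95% interval in T98G.

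FGFR1, a receptor of the FGF family (chr8:38400215-38468834, minus strand), split the lines into a high and a low pair. U87MG “Vec” was at 64.6, 68.6, and 76.9 CPM and T98G “Vec” at 64.2, 57.0, and 54.0, whereas U251MG was at 9.41, 12.2, and 9.18 and DBTRG-05MG at 15.5, 11.3, and 19.0. U87MG exceeded U251MG by 2.89 ± 0.24 (adjusted p = 1.19e-09, limma) and DBTRG-05MG by 2.40 (2.32e-08), and T98G exceeded them by 2.62 (9.2e-09) and 2.14 (1.8e-07). Neither pair passed within itself (0.27, adjusted p = 0.409, and −0.49, adjusted p = 0.133).

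The point estimates for FGFR1 between the variants had opposite signs in different lines. In U251MG the “WWOX” libraries were at 15.3, 21.0, and 21.8 CPM, all above “Vec” (log2 fold change 0.87 ± 0.24, 95% interval 0.37 to 1.37, adjusted p = 0.136, limma). In DBTRG-05MG they were at 12.1, 8.29, and 9.05, below “Vec” after scaling (−0.66 ± 0.24, adjusted p = 0.352). In U87MG they were at 64.6, 57.5, and 56.1, below “Vec” after scaling only, with the highest of them level with the lowest “Vec” library in CPM (−0.30), and in T98G at 58.9, 36.1, and 44.2, overlapping with “Vec” (−0.36). The U251MG value thus had the opposite sign to the other 3. The difference of U251MG from the mean of the other lines was 1.31 ± 0.28 (95% interval 0.73 to 1.88, adjusted p = 0.0372), the only 1 of 9 receptors to pass this test in any line, where 0.422% of genes passed in U251MG and 11.4% had an unadjusted p under 0.05. It was lost with the replicate number as a block (adjusted p = 0.0601), limma-voom (0.0638), and edgeR (0.0710), kept with DESeq2, and lost in 18 of the 24 fits that left out a library, with values of 1.02 to 1.39 in those 18 and a highest adjusted p of 0.184 without U251MG “Vec” library 3. In U251MG itself DESeq2 alone passed the change (0.97, adjusted p = 0.0301). U251MG “WWOX” is the group whose libraries stood apart, and leaving out its library 1, 2, or 3 gave 1.55, 1.02, and 1.32 for the difference. CDH5, an endothelial marker, passed the same test. Its U251MG libraries were at 3.81, 2.71, and 2.01 CPM in “Vec” and at 13.2, 4.43, and 7.17 in “WWOX”. It passed between these variants (1.28, adjusted p = 0.0133, limma) and in the response of U251MG minus the others (1.25, 0.0398). Libraries 1, 2, and 3 of U251MG “WWOX” thus held CDH5 at 13.2, 4.43, and 7.17 CPM beside FGFR1 at 15.3, 21.0, and 21.8 CPM. CDH5 was the only 1 of the 7 endothelial markers to pass, with 3 of 7 tested, and reached 5 CPM only in 2 of these “WWOX” libraries. Of the list, 2 markers reached 5 CPM in a U251MG “WWOX” library and 1 in a “Vec” library. CLDN5 was at 0 in all U251MG “WWOX” libraries and PECAM1 in all U251MG “Vec” libraries. The sum of the list was at 4.55 to 10.1 CPM in “Vec” and 9.01 to 15.8 in “WWOX”. The part of CDH5 and the other endothelial markers in the FGFR1 values was not tested.

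For the remaining receptors the difference of 1 line from the others did not pass in any line: 0 of 9 receptors passed in U87MG (2.39% of genes), T98G (1.53%), or DBTRG-05MG (0.982%) with limma, and without adjustment 0 (9.92% of genes), 3 (12.8%), and 1 (7.07%) had a p under 0.05. Counts with edgeR, limma-voom, and DESeq2 were also 0 in these 3 lines. EGFR (0.51), ERBB2 (−0.81), and PDGFRA (−1.05) were the 3 in T98G.

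AXL, the receptor of GAS6 and a member of the TAM family (chr19:41219223-41261766, plus strand), had the largest share of its sum of squares within groups among the 9 receptors. Its “Vec” libraries were at 125, 135, and 154 CPM in U87MG, at 258, 185, and 164 in T98G, at 142, 326.5, and 142 in U251MG, and at 276, 435, and 232 in DBTRG-05MG. Only U87MG was clear of T98G and of DBTRG-05MG, and all other pairs overlapped. No pair passed (adjusted p from 0.0560 to 0.675, limma, with 1 of 6 pairs at an unadjusted p under 0.05). U87MG against DBTRG-05MG, at −0.92 ± 0.38, passed in CPM as deposited, in the model of that pair alone, with edgeR, and with DESeq2 (−0.92 to −1.14, adjusted p = 0.0167 to 0.0406), and in 5 of the 24 fits that left out a library.

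The WWOX variants had AXL at 158, 144, and 99.2 CPM in U87MG, at 127, 145, and 172.5 in T98G, at 94.6, 202, and 236 in U251MG, and at 408, 182, and 203 in DBTRG-05MG. Each group overlapped with its “Vec” group. Estimates were −0.13, −0.43, −0.19, and −0.36 with a standard error of 0.38 each, and none passed.

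IGF1R, the receptor of IGF1 and IGF2 (chr15:98648539-98964530, plus strand), stepped up over the lines. “Vec” libraries were at 7.81, 6.26, and 7.86 CPM in U87MG, at 14.8, 15.7, and 10.4 in T98G, at 21.2, 38.7, and 24.0 in U251MG, and at 31.6, 20.9, and 37.9 in DBTRG-05MG. U87MG lay below all other “Vec” libraries, T98G lay between, and U251MG and DBTRG-05MG overlapped. U87MG was lower than T98G by 0.84 ± 0.28 (adjusted p = 0.0216, limma), than U251MG by 1.67 ± 0.28 (5.47e-05), and than DBTRG-05MG by 1.73 (3.06e-05). T98G was lower than U251MG by 0.82 (0.0296) and than DBTRG-05MG by 0.89 (0.0156), whereas the latter pair did not differ (0.06, adjusted p = 0.900). The steps to and from T98G were the less firm ones. The step from U87MG did not pass in CPM as deposited (adjusted p = 0.0531) or without U87MG “Vec” library 2 or 3 or T98G “Vec” library 1 or 2 (U87MG minus T98G −0.84 to −0.74, adjusted p = 0.0509 to 0.0827). The step to U251MG did not pass in the model of that pair alone (0.0582) or without T98G “Vec” library 3 (T98G minus U251MG −0.72, 0.107) or U251MG “Vec” library 2 (−0.61, 0.156), and the step to DBTRG-05MG did not pass without T98G “Vec” library 3 (T98G minus DBTRG-05MG −0.79, 0.0613) or DBTRG-05MG “Vec” library 1 (−0.82, 0.0562) or 3 (−0.76, 0.0751).

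IGF1R and ERBB2 were both lowest in U87MG and highest in DBTRG-05MG among the “Vec” means (r = 0.85 over 24 libraries that share 4 lines), with T98G and U251MG in the opposite order. The “WWOX” libraries had IGF1R at 6.61, 5.77, and 7.03 CPM in U87MG, 18.1, 10.8, and 8.45 in T98G, 28.6, 18.3, and 51.3 in U251MG, and 26.2, 30.3, and 24.3 in DBTRG-05MG. They overlapped with “Vec” in every line, and the fold changes lay between −0.22 and 0.13. In U251MG the median gene of chromosome 15 lay at 0.23 above that of all genes, beside 0.13 ± 0.28 for IGF1R.

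EPHA2, the ephrin-A receptor (chr1:16124337-16156069, minus strand), stepped up from U87MG over T98G and U251MG to DBTRG-05MG. Its “Vec” libraries were at 4.19, 2.55, and 8.84 CPM in U87MG, at 26.0, 46.4, and 21.3 in T98G, at 87.5, 86.4, and 103 in U251MG, and at 289, 317, and 216 in DBTRG-05MG. The 4 groups did not overlap, so that the order held library by library. DBTRG-05MG exceeded U87MG by 5.52 ± 0.56 (adjusted p = 2.61e-08, limma), U251MG exceeded U87MG by 4.03 (3.45e-06), T98G exceeded U87MG by 2.56 (0.000753), and DBTRG-05MG exceeded T98G by 2.96 (0.000175). The middle steps were near the threshold, at 1.46 from T98G to U251MG (adjusted p = 0.0483) and 1.50 from U251MG to DBTRG-05MG (0.0440). They did not pass without the filter (adjusted p = 0.0872 and 0.0784, limma) or with the replicate number as a block (0.0558 and 0.0513). The first also did not pass with a pseudocount of 0.1 (0.0504). Leaving out a library lost the first in 17 of 24 fits (−1.55 to −1.30 for T98G minus U251MG, adjusted p = 0.0526 to 0.144) and the second in 13 of 24 (−1.72 to −1.34 for U251MG minus DBTRG-05MG, adjusted p = 0.0502 to 0.128). EPHA2-AS1 lies over the start of EPHA2 on the opposite strand, with the limit given for ERBB2.

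In U251MG “WWOX” the EPHA2 libraries were 18.7, 164, and 84.9 CPM, 1 far below and 1 above all “Vec” libraries. The fold change was −0.53 ± 0.56 and took values from −1.43 to 0.43 when 1 library was left out, and the count methods gave 0.12 (edgeR) and 0.16 (DESeq2). U87MG “WWOX” was at 7.89, 6.65, and 8.38, T98G “WWOX” at 24.7, 17.5, and 11.3, and DBTRG-05MG “WWOX” at 315, 266, and 222. These overlapped with “Vec” (0.62, −0.78, and −0.10), and with 1 library left out the values ran from 0.25 to 1.00 in U87MG and from −1.07 to −0.48 in T98G. FGFR1 and EPHA2 correlated at r = −0.82 over the 24 libraries, which share 4 lines, although the “Vec” means of both were lower in U251MG than in DBTRG-05MG.

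Across the list, limma called 0 of the 9 receptors tested between “WWOX” and “Vec” for U87MG (3.2% of all genes called), T98G (1.14%), U251MG (0.316%), DBTRG-05MG (1.02%), and the mean of the lines (1.8%). At an unadjusted p under 0.05 the counts were 0 of 9 in U87MG (11.5% of all genes), 4 in T98G (11.5%), 1 in U251MG (11.5%), 1 in DBTRG-05MG (7.63%), and 1 in the mean (15.5%), the T98G genes being EGFR, ERBB2, PDGFRA, and PDGFRB. DESeq2 called 1 in T98G (PDGFRA), 1 in U251MG (FGFR1), and 1 in the mean (PDGFRA), edgeR called 1 in the mean (PDGFRA), and limma-voom called 0 throughout. Median log2 fold changes of the 9 were −0.20 (U87MG), −0.43 (T98G), −0.04 (U251MG), and −0.17 (DBTRG-05MG), beside −0.00, −0.05, 0.00, and 0.00 over all genes. The medians of the 9 were the same with PDGFRA set at the limit of 3 tags in U87MG and DBTRG-05MG “WWOX”. Libraries did not overlap for 1 receptor in U87MG (FGFR1; 17.5% of genes), 3 in T98G (EGFR, PDGFRA, and PDGFRB; 16.2%), 2 in U251MG (PDGFRB and FGFR1; 10.4%), and 2 in DBTRG-05MG (PDGFRA and FGFR1; 19.8%). For PDGFRA in DBTRG-05MG this rests on 2 tags in “Vec” library 2 against 1, 0, and 1 in “WWOX”, all under the limit of 3 tags. With standard errors of 0.20 to 0.56, the data leave room for changes of the size of those estimated, and a p that missed the threshold does not show that a receptor stayed level.

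**Figure D4:**
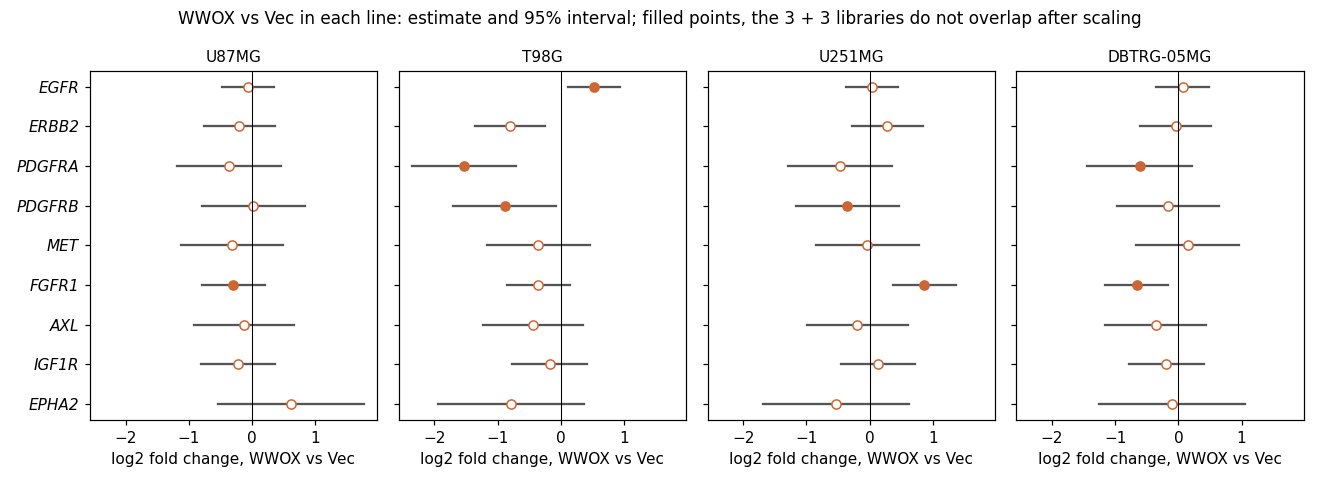
Log2 fold change of WWOX versus Vec (x axis) of 9 receptors (y axis) in each line, as the estimate (point) and 95% interval (line), with filled points where the 3 libraries of each variant did not overlap after scaling. FGFR1 lies at 0.87 in U251MG and between −0.66 and −0.30 in the other lines, and PDGFRA in T98G lies at −1.53. The filled point of PDGFRA in DBTRG-05MG rests on 2 tags in Vec library 2 against 1, 0, and 1 in WWOX.

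Ligands of these receptors were read from a list of 30 genes, of which 20 were tested. In U87MG 1 of 20 passed (3.2% of all genes) and rose: HGF, which encodes the ligand of MET. Its libraries were at 1.42, 2.55, and 1.96 CPM in “Vec” and at 26.1, 16.4, and 10.3 in “WWOX”, without overlap (2.76 ± 0.37, adjusted p = 3.18e-05, limma), and it passed under all alternatives and leave-outs. Its difference from the other lines was 2.42 (adjusted p = 0.00143), and HGF was at or under 1.30 CPM in every library of those lines. MET itself in the same U87MG libraries was at −0.31 ± 0.39.

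In T98G 2 of 20 ligands passed (1.14% of all genes) and fell. IGF2, a ligand of IGF1R, was at 4.71, 8.71, and 3.35 CPM in “Vec” and at 0.930, 1.11, and 0.858 in “WWOX” (−1.99 ± 0.23, adjusted p = 1.98e-05, limma). AREG, encoding the EGFR ligand amphiregulin, was at 0.914, 1.50, and 0.467 CPM (13, 24, and 6 tags) in “Vec” and at 0 tags in each “WWOX” library (adjusted p = 0.000831), which is at least 3.97-fold lower against 3 tags per library. Both passed except in the model of T98G alone (adjusted p = 0.1004 for each), and the start of IGF2 lies within INS-IGF2 on the same strand. AREG is a DBTRG-05MG gene in these lines: there it was at 113, 174, and 124 CPM in “Vec” and at 301, 244, and 168 in “WWOX”, overlapping by 1 library (0.71 ± 0.24, adjusted p = 0.271). The response of DBTRG-05MG minus the mean response elsewhere passed (1.199, adjusted p = 0.0286), with AREG at 0 in 11 of the 12 U87MG and U251MG libraries. In U251MG and DBTRG-05MG 0 of 20 ligands passed, where 0.316% and 1.02% of all genes did. At an unadjusted p under 0.05 the ligand counts were 2 and 7, beside 11.5% and 7.63% of all genes. The median over the 20 was 0.05, −0.16, 0.09, and 0.40 in U87MG, T98G, U251MG, and DBTRG-05MG.

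Of 30 genes that carry the signal inward (adaptors, PI3K, AKT, RAS, RAF, and MAPK genes), 29 were tested and 0 passed in any of the 4 lines. Before adjustment, a p under 0.05 was reached by 3 of them for U87MG, 2 for T98G, 3 for U251MG, and 0 for DBTRG-05MG, under the 11.5%, 11.5%, 11.5%, and 7.63% of all genes. The medians lay between −0.05 and 0.07.

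Of 30 genes that restrain or modulate receptors, all of which were tested, 1 passed in U87MG (3.2% of all genes) and 1 in DBTRG-05MG (1.02%). GRB14, an adaptor that inhibits insulin receptor family kinases, fell in U87MG from 3.41, 3.94, and 6.59 CPM to 2.75, 2.04, and 1.35 (−1.06 ± 0.22, adjusted p = 0.00568, limma). It did not pass in 5 of 10 alternatives or without U87MG “WWOX” library 3 (−0.87, adjusted p = 0.0508). MUC4, a membrane mucin that binds ERBB2, rose in DBTRG-05MG from 1, 0, and 6 tags to 73, 108, and 39 (2.82 ± 0.29 with 0.5 added, adjusted p = 2.09e-06), and not with DESeq2 (4.92, adjusted p = 0.380). ERBB2 in the same comparison was at −0.05. In T98G and U251MG 0 of 30 passed, where 1.14% and 0.316% of all genes did. At an unadjusted p under 0.05 the counts of the 30 were 5 and 8, beside 11.5% of all genes in each.

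Among 48 further receptor tyrosine kinases, 23 were tested. Of these, 2 passed in U87MG (3.2% of all genes) and 1 in DBTRG-05MG (1.02%). PTK7, a pseudokinase receptor of WNT signaling, fell in U87MG from 27.4, 37.5, and 22.6 CPM to 7.34, 8.41, and 10.8 (−1.72 ± 0.30, adjusted p = 0.000813, limma), with no pass in the model of U87MG alone (0.0667). In DBTRG-05MG its “WWOX” libraries lay above “Vec” without passing (0.66, adjusted p = 0.604), while the response of DBTRG-05MG minus the mean response elsewhere passed (1.48, 0.0341), as did that of U87MG (−1.68, 0.00652). ROS1, a receptor kinase related to ALK, fell in U87MG from 3.27, 8.42, and 6.17 CPM to 2.998, 1.56, and 0.677 (−1.65 ± 0.29, adjusted p = 0.000989), and not with edgeR (0.180), DESeq2 (0.204), or the model of U87MG alone (0.239). EPHB1, an ephrin-B receptor, rose in DBTRG-05MG from 0.393, 1.67, and 0.198 CPM to 12.7, 4.21, and 5.07 (2.54 ± 0.46, adjusted p = 0.00347), and not with edgeR (0.0936) or the model of that line alone (0.130). Other annotated genes lie over the starts of ROS1 (1 on the same strand) and EPHB1 (1 on the same and 1 on the opposite strand). In T98G and U251MG 0 of 23 passed, where 1.14% and 0.316% of all genes did. At an unadjusted p under 0.05 the counts of the 23 were 2 and 4, beside 11.5% of all genes in each. In the response of a line minus that of the others, NTRK3, a neurotrophin receptor, passed for U251MG (−1.98, adjusted p = 0.0398, limma). Its U251MG libraries were at 7.95, 7.003, and 7.03 CPM in “Vec” and at 0.617, 2.50, and 4.67 in “WWOX”. That change within U251MG did not itself pass (−1.58, adjusted p = 0.0719, limma). The NTRK3 changes of the other lines were 0.24 (U87MG), 0.01 (T98G), and 0.93 (DBTRG-05MG), and none passed. DBTRG-05MG held it at 30.6, 32.6, and 25.95 CPM in “Vec” and at 59.3, 58.4, and 61.1 in “WWOX”. LRIG1, of the inhibitor list, passed this test for U87MG (−1.75, adjusted p = 0.00304, limma). Its U87MG libraries were at 18.8, 31.7, and 24.8 CPM in “Vec” and at 14.5, 11.7, and 12.5 in “WWOX”. That change within U87MG did not itself pass (−0.97, adjusted p = 0.0757, limma). The LRIG1 changes of the other lines were 0.58 (T98G), 0.67 (U251MG), and 1.10 (DBTRG-05MG), and none passed. DBTRG-05MG held it at 23.8, 23.8, and 21.5 CPM in “Vec” and at 58.2, 49.8, and 49.6 in “WWOX”. NTRK3 and LRIG1 were chosen after their values were seen, as were CDH5 and CLDN7 among the markers. HGF, IGF2, ROS1, EPHB1, GRB14, and MUC4 reached 5 CPM only in the variant and line where they were high, GRB14, IGF2, and MUC4 in 1 library each, so that their entry into the test depended on the side that was high. Each of them passed also without the filter.

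**Figure D5:**
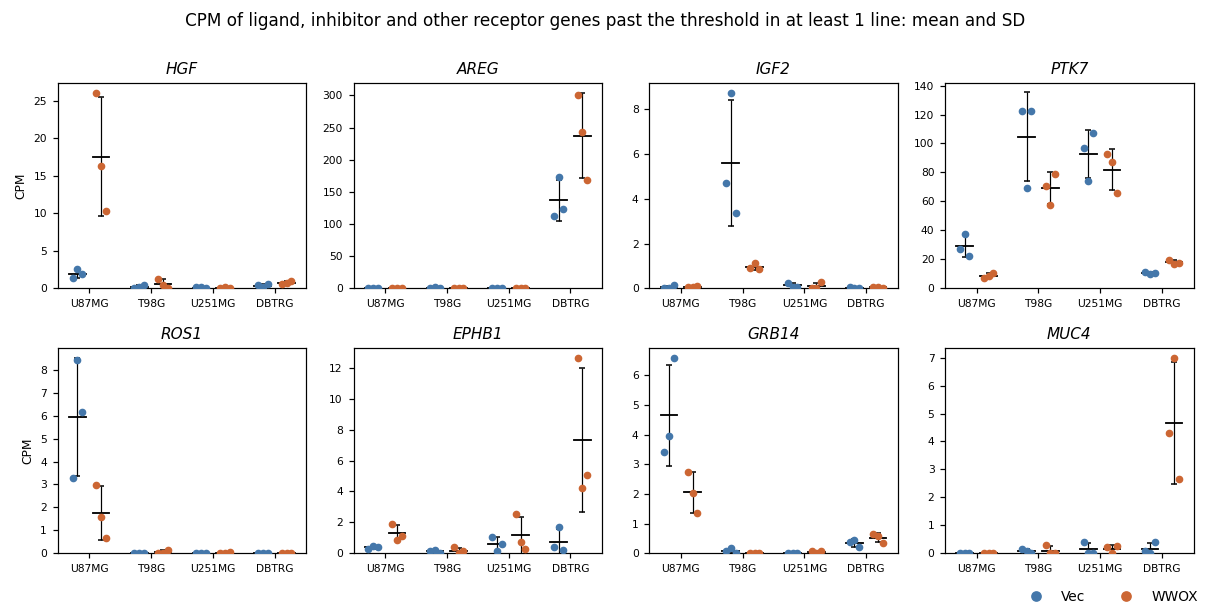
CPM (y axes, each from 0) of 8 genes from the lists of ligands, modulators, and other receptor kinases that passed the threshold between Vec (blue) and WWOX (orange) in at least 1 line, as 3 libraries (points), mean (horizontal line), and SD (whiskers). HGF and ROS1 are seen in U87MG, IGF2 in T98G, and MUC4 in DBTRG-05MG, whereas AREG in T98G (at most 1.50 CPM) is hidden by its DBTRG-05MG scale.

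Genes most like each receptor were ranked by Pearson correlation of scaled log2 values over the 24 libraries, which share 4 lines. They were FGF13 (0.92) and KCNE4 (0.89) for EGFR, FN3K (0.98) and CITED4 (0.97) for ERBB2, GAS7 and SLC38A3 (0.97 each) for PDGFRA, and TMEM100 (0.96) and RIPK4 (0.95) for PDGFRB. For MET they were DCBLD2 (0.98) and MAST4 (0.97), for FGFR1 GREB1 and TUSC1 (0.96 and 0.95), for IGF1R ALDH5A1 and SFRP1 (0.94 each), and for EPHA2 CTBP1 (0.94) and PLAT (0.93). AXL, with little of its spread between lines, had no close match (ZDHHC16 0.74, RASGRP3 0.72).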

How the data were processed

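The authors aligned CAGE-Seq reads to hg38 with STAR, counted tags per gene, and deposited counts scaled to CPM. The 24 libraries fall into 8 groups of 3 by line and variant. Of 43037 genes, 43033 were matched to a symbol. The deposited values are whole multiples of 1 tag over the library total (100% within 0.01 of a tag), so tags were recovered for alternatives. CPM were scaled by trimmed means of M-values (30% of M and 5% of A trimmed), 0.5 was added, and log2 taken. The 12327 genes that reached 5 CPM in any 1 library were fitted with limma 3.58.1 (trend, 8 group means, 16 residual degrees of freedom, R 4.3.3), and two-sided p were adjusted by Benjamini-Hochberg, threshold 0.05. Fold changes of low genes are understated by the pseudocount. Alternatives were another pseudocount, no filter, other scalings, separate models, the replicate block, edgeR 4.0.16, limma-voom, and DESeq2 1.42.0 on recovered tags, and leaving out each library. The model was checked on simulated data. Gene positions are from GENCODE 44. The receptors and lists were chosen with earlier results of these data known. Named beyond the receptors were WWOX, up to 3 genes per list and line with the largest changes past the threshold, and the 2 genes most correlated with each receptor.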

Additional observations from a re-analysis of the deposited data

Results flagged for a closer look

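The response of FGFR1 in U251MG differed from that of the other lines by a test of the difference itself. Its log2 fold change of “WWOX” versus “Vec” minus the mean of the other 3 lines was 1.31 (adjusted p = 0.0372, limma), with FGFR1 at 0.87 in U251MG, −0.30 in U87MG, −0.36 in T98G, and −0.66 in DBTRG-05MG. This call was lost with the replicate number as a block (adjusted p = 0.0601), limma-voom, and edgeR. It was also lost in 18 of the 24 limma fits that left out a library (adjusted p = 0.0503 to 0.184). CDH5 and NTRK3 passed the same comparison in U251MG (1.25 and −1.98, adjusted p = 0.0398 each), and their part in the FGFR1 value was not tested. No rule for outlying libraries was applied. The correlations within groups and the fits without each library are descriptions.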

How the results depend on the processing

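Of the single values recomputed with all libraries kept, 1075 kept their direction and side of the threshold, 15 passed it newly, 45 no longer passed, and 11 changed sign; without 1 library at a time these were 2654, 22, 66, and 37. The number of receptors past the threshold between “WWOX” and “Vec” became 1 with DESeq2 in T98G and in U251MG, and 1 in the mean of the lines with a pseudocount of 0.1, edgeR, and DESeq2. For the response of U251MG minus that of the other lines it became 0 with limma-voom and edgeR. For the “Vec” groups of U251MG and DBTRG-05MG it became 2 without the filter. With a library left out, these counts ran from 0 to 1 in T98G, in the responses of T98G and of U251MG minus the other lines, and in the mean, and from 2 to 5 for the “Vec” groups of U251MG and DBTRG-05MG, with 2 without any 1 of the 3 U251MG “Vec” libraries or DBTRG-05MG “Vec” library 1 or 3. The cause of these changes was not tested.

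Replicate numbers did not pair the libraries: deviations of “Vec” and “WWOX” libraries with the same number correlated at −0.55 to 0.51. With the replicate number as a block, the count for the response of U251MG minus the other lines became 0 (FGFR1 1.31, adjusted p = 0.0601, limma), and EPHA2 no longer passed between T98G and U251MG (0.0558) or between U251MG and DBTRG-05MG (0.0513).

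Signs that changed belonged to values near 0 or to spread groups. In CPM as deposited, EGFR was 0 in U87MG and −0.01 between “Vec” of T98G and U251MG, ERBB2 was 0.02 in DBTRG-05MG, and WWOX was 0.01 in U251MG. In U251MG, MET became 0.02 and 0.03, EPHA2 0.12 and 0.16, and WWOX 0.07 and 0.08 with edgeR and DESeq2, and WWOX 0 with limma-voom. With a library left out, fold changes of “WWOX” versus “Vec” in U87MG ran from −0.20 to 0.13 for EGFR, −0.30 to 0.31 for PDGFRB, −0.63 to 0.05 for MET, and −0.23 to 0.05 for AXL. In T98G they ran from −0.65 to 0.12 for MET and −0.50 to 0.08 for IGF1R. In U251MG they ran from −0.06 to 0.17 for EGFR, −0.27 to 0.22 for MET, −0.57 to 0.29 for AXL, −0.14 to 0.34 for IGF1R, −1.43 to 0.43 for EPHA2, and −0.30 to 0.23 for WWOX. In DBTRG-05MG they ran from −0.09 to 0.01 for ERBB2, −0.58 to 0.32 for PDGFRB, −0.00 to 0.38 for MET, and −0.32 to 0.06 for EPHA2, whose mean over the lines ran from −0.43 to 0.04. Between “Vec” groups, U87MG minus U251MG ran from −0.11 to 0.04 for EGFR, −0.47 to 0.05 for MET, and −0.46 to 0.08 for AXL, T98G minus U251MG from −0.02 to 0.29 for EGFR, T98G minus DBTRG-05MG from −0.48 to 0.08 for ERBB2, U87MG minus DBTRG-05MG from −0.40 to 0.10 for PDGFRA, and U251MG minus DBTRG-05MG from −0.28 to 0.08 for IGF1R.

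Depth limits ERBB3 everywhere and PDGFRA in U87MG and DBTRG-05MG, where most libraries held under 10 tags. PDGFRA in T98G “WWOX” held 8, 10, and 7 tags, so that its fold change of −1.53 there also rests on few tags.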
